A study of Homo sapiens with 8 samples.

Results

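The 32 genes described here are those of cholesterol and fatty acid synthesis in SUM159, a triple-negative breast cancer cell line, and they were taken by name from the 18955 genes of a single-cell count table. They fall into 19 enzymes of the sterol arm, 6 regulators and 7 enzymes of the fatty acid arm. SUM159 cells carrying a lentiviral ClonTracer DNA barcode library were passaged up to 18 times with the BET bromodomain inhibitor JQ1 at 100 nM, the microtubule drug paclitaxel at 0.6 nM, the CDK4/6 inhibitor palbociclib at 160 nM, or JQ1 together with either partner. An experiment on JQ1 with paclitaxel gave the libraries DMSO (vehicle), paclitaxel, JQ1-A and JQ1+paclitaxel. A second experiment, on JQ1 with palbociclib, gave palbociclib, JQ1-B and JQ1+palbociclib and had no vehicle library among those analysed here. The pre-treatment library held barcoded cells from before any drug, so all 8 libraries share the line and the barcode library. Triplicate cultures of a treatment were pooled in equal cell numbers before encapsulation, and 1 of the 3 JQ1+palbociclib cultures had died out, so each library is a pool in which cultures cannot be told apart. Every treatment except JQ1 thus has 1 library, and a p-value below measures the spread between libraries. For the terms of single drugs, that spread also includes any departure of JQ1 and its partner from additive effects.

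The table held 5738 cells, 459 to 1024 per library, and 10621159 (DMSO) to 24240835 (JQ1+palbociclib) UMIs, or unique molecular identifiers, each of which marks 1 captured RNA molecule. Levels are in CPM, a gene's UMIs scaled to the same total in every library. VIM at 3279 to 4502 CPM, CD44 at 228 to 437 CPM, KRT18 at 313 to 669 CPM and KRT8 at 275 to 445 CPM were present in every library, as known for this mesenchymal-type line. The hormone receptor genes ESR1 and PGR reached at most 0.124 and 0.139 CPM, and ERBB2 was at 5.32 to 12 CPM. Of markers of other cells, PTPRC reached 0.471 CPM, EPCAM 0.565 CPM and GATA3 3.90 CPM. CD3E, LYZ, PECAM1, CDH5 and CDH1 were not among the genes of the count table. The same barcode sequence occurred in more than 1 library for 13 cell barcodes, which covered 26 cells. Median mitochondrial shares ran from 3.72% of UMIs (paclitaxel) to 7.18% (JQ1+palbociclib).

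Cholesterol and fatty acids are both built from acetyl-CoA. The mevalonate pathway turns it into isoprenoids and squalene, which is cyclised to lanosterol and trimmed to cholesterol, while ATP citrate lyase, acetyl-CoA carboxylase and fatty acid synthase make palmitate, which elongases and desaturases then modify. Transcription factors of the SREBP family switch on genes of both arms: when sterols are scarce SCAP carries the SREBP precursor from the endoplasmic reticulum to the Golgi, where proteases release the active factor, and INSIG proteins hold SCAP back when sterols are plentiful.

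The promoters of 4 members are printed because their genes carry the results below. EBP and TM7SF2 moved in opposite directions with JQ1. INSIG1 and SREBF2 were called for an interaction of JQ1 with paclitaxel, which rests on the single paclitaxel and JQ1+paclitaxel libraries. Each run is the 250 bases before the RefSeq start on the plus strand of GRCh38.p14, written 5′ to 3′, and capitals mark matches on either strand to TCACNCCAC (a sterol regulatory element, the SREBP motif), CCAAT (the NF-Y motif, ATTGG on the other strand), GGGCGG (a GC box, CCGCCC on the other strand) and CACGTG (an E-box). Adjacent GC boxes may overlap.
EBP, chrX:48521558-48521807: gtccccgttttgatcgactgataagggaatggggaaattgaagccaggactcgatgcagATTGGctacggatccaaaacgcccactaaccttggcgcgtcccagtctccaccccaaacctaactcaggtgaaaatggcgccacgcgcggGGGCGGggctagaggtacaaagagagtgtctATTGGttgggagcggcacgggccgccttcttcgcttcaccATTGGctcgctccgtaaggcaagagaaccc
TM7SF2, chr11:65111622-65111871: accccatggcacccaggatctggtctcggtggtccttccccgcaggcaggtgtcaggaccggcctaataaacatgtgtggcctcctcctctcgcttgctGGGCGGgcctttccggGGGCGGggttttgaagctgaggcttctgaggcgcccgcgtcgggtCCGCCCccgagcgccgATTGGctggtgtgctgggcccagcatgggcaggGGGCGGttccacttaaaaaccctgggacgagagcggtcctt
INSIG1, chr7:155297628-155297877: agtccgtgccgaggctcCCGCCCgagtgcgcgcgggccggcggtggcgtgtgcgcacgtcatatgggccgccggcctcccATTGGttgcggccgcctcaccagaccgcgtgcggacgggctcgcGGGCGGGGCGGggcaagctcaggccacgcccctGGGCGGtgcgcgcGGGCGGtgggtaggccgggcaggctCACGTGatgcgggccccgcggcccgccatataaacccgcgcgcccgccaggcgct
SREBF2, chr22:41832855-41833104: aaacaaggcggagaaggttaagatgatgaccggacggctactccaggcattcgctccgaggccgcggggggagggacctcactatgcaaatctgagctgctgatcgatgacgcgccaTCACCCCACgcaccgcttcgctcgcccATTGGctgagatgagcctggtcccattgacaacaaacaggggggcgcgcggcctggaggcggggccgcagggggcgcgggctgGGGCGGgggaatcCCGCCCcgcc

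The RefSeq table held promoters of 28 members, counted over windows from 250 bases before to 50 bases after each start, with any window of a gene counting. It held none for ACAT2, FDFT1, SQLE and FASN. CCAAT was found for 21 of the 28 members (75%), against 39.7% of the 27305 genes of the table, and for 14 of 16 sterol arm genes. GGGCGG was found for 27 of 28 members (96.4%) against 48.3%. The E-box was found for 4 members (14.3%) against 8.77% of all genes. Only SREBF2 held TCACNCCAC, so that 3.57% of members had it against 1.39% of all genes. These matches describe the letters in the window, and in the promoters above EBP has CCAAT 3 times where TM7SF2 has it once. The 27305 genes were not limited to those expressed in these cells, and no background of expressed genes was counted.

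Summed over its 19 genes, the sterol arm was highest in the 2 libraries without any drug, at 908 CPM before treatment and 966 CPM in DMSO. It stood at 671 CPM in paclitaxel and 529 CPM in palbociclib, and at 534 CPM in JQ1-A and 588 CPM in JQ1-B, with the combinations lowest (JQ1+paclitaxel 473 CPM, JQ1+palbociclib 467 CPM). Every drug library was thus below both drug-free libraries, and palbociclib alone fell inside the range of the JQ1 libraries. These sums are shares of library totals, in which the typical gene moved as well. The all-gene median ratio to DMSO was 0.791 in JQ1-A, 0.849 in palbociclib and 1.02 in paclitaxel. Relative to that median the sterol arm stood at 0.699, 0.646 and 0.681 of DMSO in these libraries. On that scale the fatty acid arm was at 1.10, 0.981 and 0.531. The fatty acid arm had another order: 418 CPM before treatment, 469 CPM in DMSO, 254 CPM in paclitaxel, 390 CPM in palbociclib, 407 CPM in JQ1-A, 510 CPM in JQ1-B, then 411 CPM in JQ1+paclitaxel and 311 CPM in JQ1+palbociclib. It was lowest in paclitaxel and highest in JQ1-B. The regulators followed the fatty acid arm at the low end, with 83.6 CPM in paclitaxel and 122 CPM in JQ1+palbociclib against 185 to 244 CPM in the other 6 libraries.

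**Figure D1:**
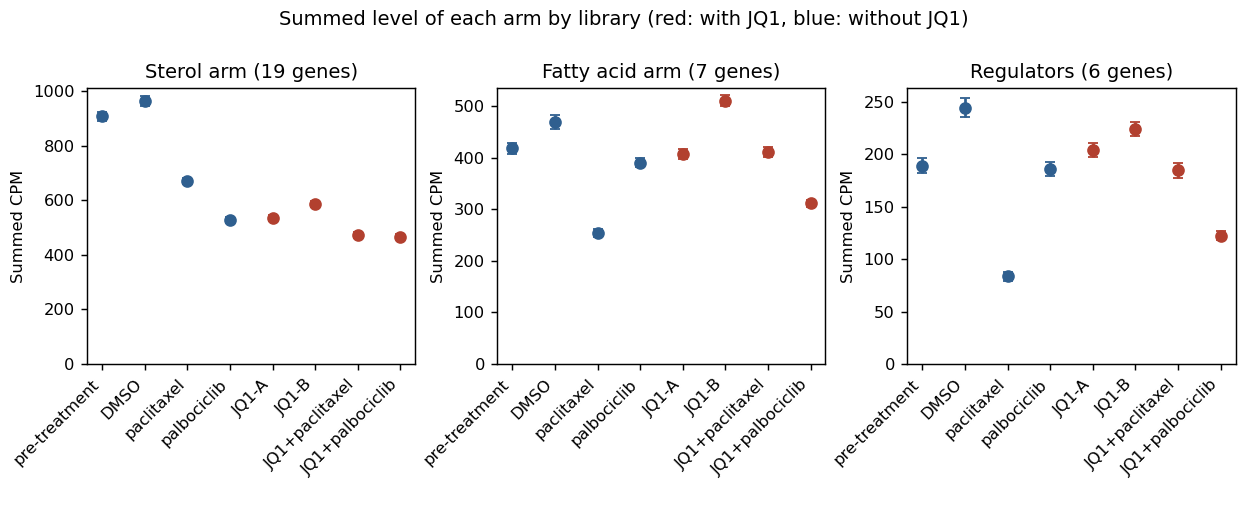
Summed level of the sterol arm, the fatty acid arm and the regulators (vertical axes, CPM, from 0) in each of the 8 libraries (horizontal axes). Points are libraries, red with JQ1 and blue without, and bars are exact 95% counting intervals; the sterol arm is highest in the pre-treatment and DMSO libraries, and the paclitaxel library is lowest in the other 2 panels, at 254 and 83.6 CPM.

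The ratio of the sterol arm to the fatty acid arm was 2.17 before treatment (95% counting interval 2.11 to 2.24), 2.06 in DMSO and 2.64 in paclitaxel, but 1.36 in palbociclib, 1.31 in JQ1-A, 1.15 in JQ1-B, 1.15 in JQ1+paclitaxel and 1.50 in JQ1+palbociclib. All libraries with JQ1 or palbociclib lay at or below 1.50 and the other 3 at or above 2.06. EBP alone gave 18.1% (JQ1+paclitaxel) to 36.0% (paclitaxel) of the sterol arm's UMIs. Without EBP the ratio was 1.34 to 1.69 in those 3 libraries and 0.890 to 1.22 in the other 5, so the same libraries stood on either side. SCD gave 17.3% (paclitaxel) to 42.4% (JQ1-A) of the fatty acid arm's UMIs. These intervals cover counting error only, and each arm was described, not tested.

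By single genes, DMSO held the highest level of 14 of the 32 members and the pre-treatment library of 8. Such tallies also use shares of library totals, so the lower typical gene in JQ1-A and palbociclib enters them. The lowest level was in paclitaxel for 11 members, in JQ1+palbociclib for 10 and in JQ1+paclitaxel for 7. The heat map of member levels shows these low columns.

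**Figure D2:**
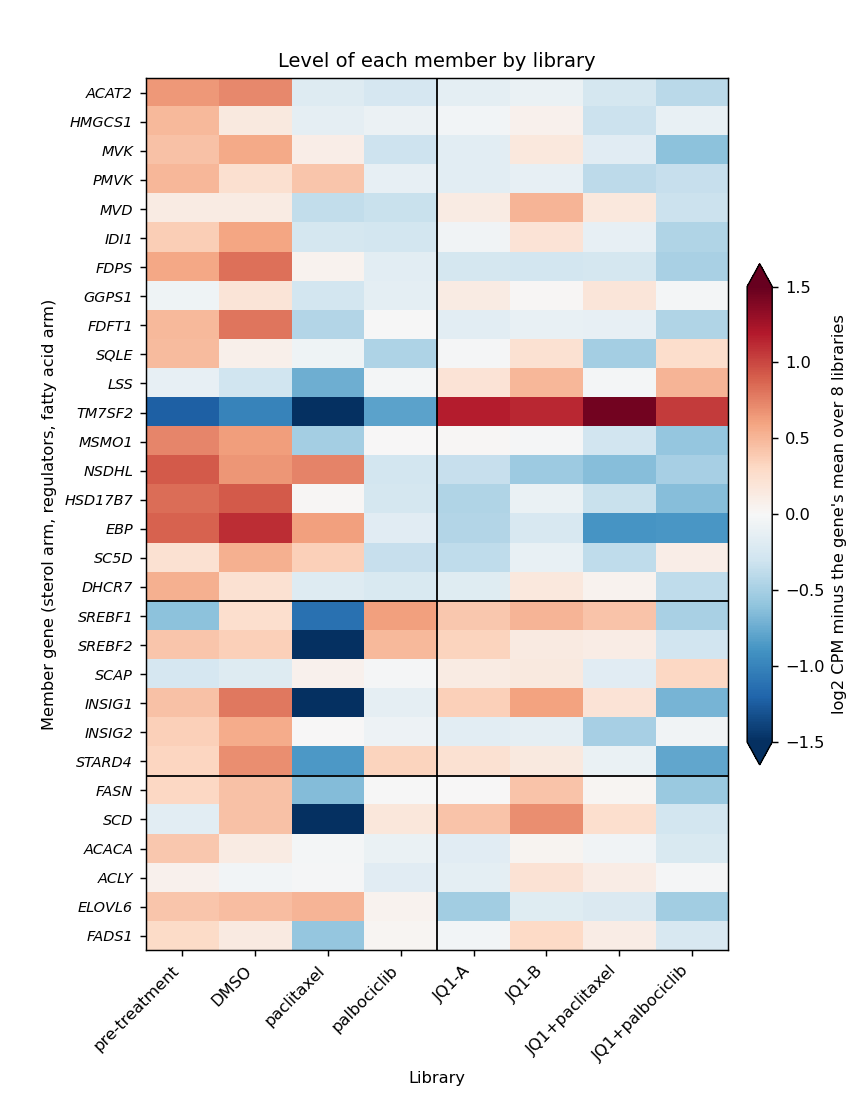
Heat map of the 30 members that passed the filter on low values (rows, ordered as sterol arm, regulators and fatty acid arm, separated by lines) in 8 libraries (columns, those with JQ1 to the right of the vertical line). Colour is log2 CPM minus the gene's mean over the 8 libraries and is capped at -1.5 and 1.5; TM7SF2 is high in the 4 JQ1 libraries, EBP and NSDHL are high in the pre-treatment, DMSO and paclitaxel libraries, and INSIG1, SREBF2 and SCD are lowest in paclitaxel.

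The question of which members changed with JQ1 was put to the 4 libraries with it and the 4 without, with both partner drugs as terms of edgeR's quasi-likelihood fit over 9288 genes. Of the 32 members 30 passed the filter of at least 5 CPM in at least 2 libraries, and 9 of these, including TM7SF2, which passed only through the JQ1 libraries, were called at an adjusted p below 0.05, 4 higher and 5 lower. JQ1 called 37.6% of all genes tested, 17.8% higher and 19.7% lower, so the members' count of 9 of 30 was not above the background. Higher were TM7SF2, LSS, MVD and SCAP, and lower were EBP, NSDHL, ELOVL6, FDPS and PMVK. By group, 7 of 18 sterol enzymes were called (3 higher, 4 lower; median log2 fold change -0.19), 1 of 6 regulators (median 0.33) and 1 of 6 fatty acid enzymes (median 0.20), while the median of all genes was -0.0032. The last 2 medians rest on the paclitaxel pair of libraries: without paclitaxel they were -0.15 and -0.038, and without JQ1+paclitaxel -0.15 and -0.035. The steps of the sterol pathway therefore did not move as a block. The log2 fold changes come from libraries scaled by TMM, which assumes that most genes do not change. Scaled by library totals alone the median of all genes moved to -0.20, the share of higher calls among all called genes fell from 47.4% to 22.9%, and 11 members were called, 2 higher and 9 lower, 7 of them also called with TMM.

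The experiments were a batch that the JQ1 term spans. With experiment as a term, 3 members (EBP, LSS and TM7SF2) and 463 of all 9288 genes were called. Within the JQ1+paclitaxel experiment 8 members were called, 6 higher and 2 lower, beside 2682 of 8833 genes. Of these members EBP, LSS, NSDHL and TM7SF2 were also called over all libraries. The others were INSIG1, SCD, SREBF1 and SREBF2, of which INSIG1 and SREBF2 are also called below for the interaction with paclitaxel. The residual of that fit is only the departure of the 2 drugs from additivity. The JQ1+palbociclib experiment has too few libraries for a test. In 3 pairs that shared their partner drug (JQ1-A with DMSO, each combination with its partner alone), EBP and TM7SF2 were called, beside 361 of 9172 genes. EBP held its call in all 17 alternatives, LSS in 16, NSDHL in 15, ELOVL6 in 14, FDPS in 10, PMVK in 7, and MVD and SCAP in 6 each. TM7SF2 was also called in all 17. It enters every filtered fit only through the JQ1 libraries, where it is high, so this adds no support for its call.

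Below, levels are given in the order pre-treatment, DMSO, paclitaxel and palbociclib for the libraries without JQ1, and JQ1-A, JQ1-B, JQ1+paclitaxel and JQ1+palbociclib for those with it. The first steps of the sterol arm make mevalonate and isoprenoids. PMVK, phosphomevalonate kinase, was at 75.2, 63.1, 70.9 and 49.1 CPM without JQ1 and at 47.6, 49.0, 40.5 and 41.9 CPM with it. Its lowest level without JQ1 was the one in palbociclib, which lay just above the highest with JQ1. The log2 fold change was -0.32 ± 0.10 (SE; adjusted p = 0.0414). PMVK is 1 of 6 tested members whose levels with and without JQ1 did not overlap, a pattern shown by 28.2% of all genes tested. The call was lost without the pre-treatment (adjusted p = 0.135), paclitaxel (0.0985), JQ1-A (0.115), JQ1-B (0.103) or JQ1+paclitaxel (0.0988) library.

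MVD, mevalonate diphosphate decarboxylase, stood at 16.7, 16.9, 11.99 and 12.3 CPM without JQ1 and at 16.7, 21.9, 17.2 and 12.3 CPM with it, so the groups overlapped. Its log2 fold change was 0.43 ± 0.14 (adjusted p = 0.0468), lost when any library other than palbociclib or JQ1+palbociclib was left out, with adjusted p from 0.0671 (without JQ1-A) to 0.155 (without JQ1-B). FDPS, which joins isoprenoid units into farnesyl diphosphate, was at 105, 126, 73.4 and 63.4 CPM without JQ1. With JQ1 it held 58.8, 58.6, 58.8 and 50.5 CPM, a narrow range below all the others. Its log2 fold change was -0.46 ± 0.14 (adjusted p = 0.0330), lost when pre-treatment (0.0840), DMSO (0.0887), JQ1-B (0.116) or JQ1-A (0.124) was left out. FDPS has 8 pseudogenes in the annotation, as IDI1, HSD17B7, CYP51A1 and SCD have some, so reads may have been split and these counts are uncertain.

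Other early enzymes did not pass the test for JQ1. HMGCS1, the synthase that makes HMG-CoA, ran from 11.02 CPM (JQ1+paclitaxel) to 19.2 CPM (pre-treatment), at 19.2, 15.3, 12.5 and 12.9 CPM without JQ1 and 13.4, 14.4, 11.02 and 12.7 CPM with it. IDI1, which isomerises isopentenyl diphosphate, was at 50.7, 59.0, 32.7 and 32.4 CPM and at 37.8, 45.2, 36.0 and 28.7 CPM. The 2 drug-free libraries were highest for IDI1, with paclitaxel and palbociclib below JQ1-A and JQ1-B. ACAT2, which condenses acetyl-CoA units, spanned 34.4 to 74.8 CPM and MVK, mevalonate kinase, 5.94 to 13.5 CPM, each with its lowest level in JQ1+palbociclib and its highest in DMSO. GGPS1, the geranylgeranyl diphosphate synthase, varied little, at 23.0, 27.6, 19.9 and 21.8 CPM without JQ1 and 26.2, 24.4, 27.3 and 23.7 CPM with it.

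Squalene and lanosterol are made by FDFT1, SQLE and LSS. LSS, lanosterol synthase (chromosome 21: 47608055 to 47648738, minus strand, GRCh37), was at 17.5, 15.4, 11.5 and 18.7 CPM without JQ1 and 21.9, 26.8, 18.7 and 27.0 CPM with it. Only palbociclib reached the JQ1 range, where it matched JQ1+paclitaxel. The log2 fold change was 0.78 ± 0.12 (adjusted p = 0.0027), and in the 3 matched pairs 0.76 (adjusted p = 0.0516). SQLE, the squalene epoxidase, was at 68.6, 52.0, 47.3 and 35.8 CPM without JQ1 and 48.8, 58.0, 34.7 and 59.4 CPM with it, and did not pass the test. FDFT1, the squalene synthase, spanned 29.5 CPM (JQ1+palbociclib) to 70.1 CPM (DMSO). Of these enzymes only LSS had its highest level in a library with JQ1.

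The steps from lanosterol to cholesterol held the members with the largest changes in both directions. TM7SF2, a sterol C14 reductase (chromosome 11: 64879317 to 64883856, plus strand, GRCh37), was a low gene without JQ1, with 1.13, 1.32, 0.770 and 1.51 CPM, from 14 to 25 UMIs per library. With JQ1 it reached 5.99, 5.81, 7.18 and 5.49 CPM, from 97 to 133 UMIs. Every JQ1 library was at least at 5.49 CPM and every other at most at 1.51 CPM. The log2 fold change was 2.57 ± 0.26 (adjusted p = 0.00097) and ranged from 2.27 to 3.01 over the 17 alternatives. TM7SF2 passed the filter only through the JQ1 libraries, where it is high, so it could enter the test only by differing, and its call adds no support to the members' count. With no filter on low counts its log2 fold change was 2.58 (adjusted p = 1e-05). Its annotated start overlaps the end of VPS51, on the same strand, by 18 bases. LBR, which carries out the same reduction and is no member, was at 20.6 to 32.1 CPM without JQ1 and 16.2 to 21.9 CPM with it (log2 fold change -0.25 ± 0.11, adjusted p = 0.112).

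EBP, the sterol isomerase that moves the ring bond from position 8 to 7 (chromosome X: 48380187 to 48387104, plus strand, GRCh37), gave the most UMIs of the arm. It was at 291, 339, 242 and 141 CPM without JQ1 and at 117, 134, 85.8 and 85.8 CPM with it. The groups did not overlap, but palbociclib lay next to JQ1-B. EBP's log2 fold change was -1.02 ± 0.12 (adjusted p = 0.0012), and it ranged from -1.22 to -0.96 over the 17 alternatives. An unnamed protein-coding gene model (ENSG00000286268) covers nearly all of EBP on the same strand, so its reads could be shared.

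NSDHL, a sterol dehydrogenase of C4 demethylation (chromosome X: 151999511 to 152038273, plus strand, GRCh37), followed EBP. Its levels were 25.5, 21.4, 22.6 and 11.2 CPM without JQ1 and 10.6, 9.26, 8.72 and 9.57 CPM with it. Again palbociclib sat beside the JQ1 libraries and far below the other 3. The log2 fold change was -0.83 ± 0.17 (adjusted p = 0.0088); with experiment as a term it was -0.68 (adjusted p = 0.103). The other late enzymes did not pass: MSMO1, the C4 oxidase, at 10.1 to 24.9 CPM, HSD17B7, the ketoreductase that follows NSDHL, at 2.64 to 7.81 CPM, and SC5D, the C5 desaturase, at 8.22 to 15.5 CPM. DHCR7, which reduces 7-dehydrocholesterol to cholesterol, was at 28.3, 22.9, 17.1 and 16.6 CPM without JQ1 and 17.2, 21.8, 20.2 and 14.9 CPM with it. CYP51A1, the lanosterol demethylase, was under the filter with 0.302 to 0.942 CPM, from 5 to 15 UMIs per library. Unnamed gene models overlap CYP51A1, and also GGPS1, on the same strand, so their reads could be shared and their counts are uncertain.

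**Figure D3:**
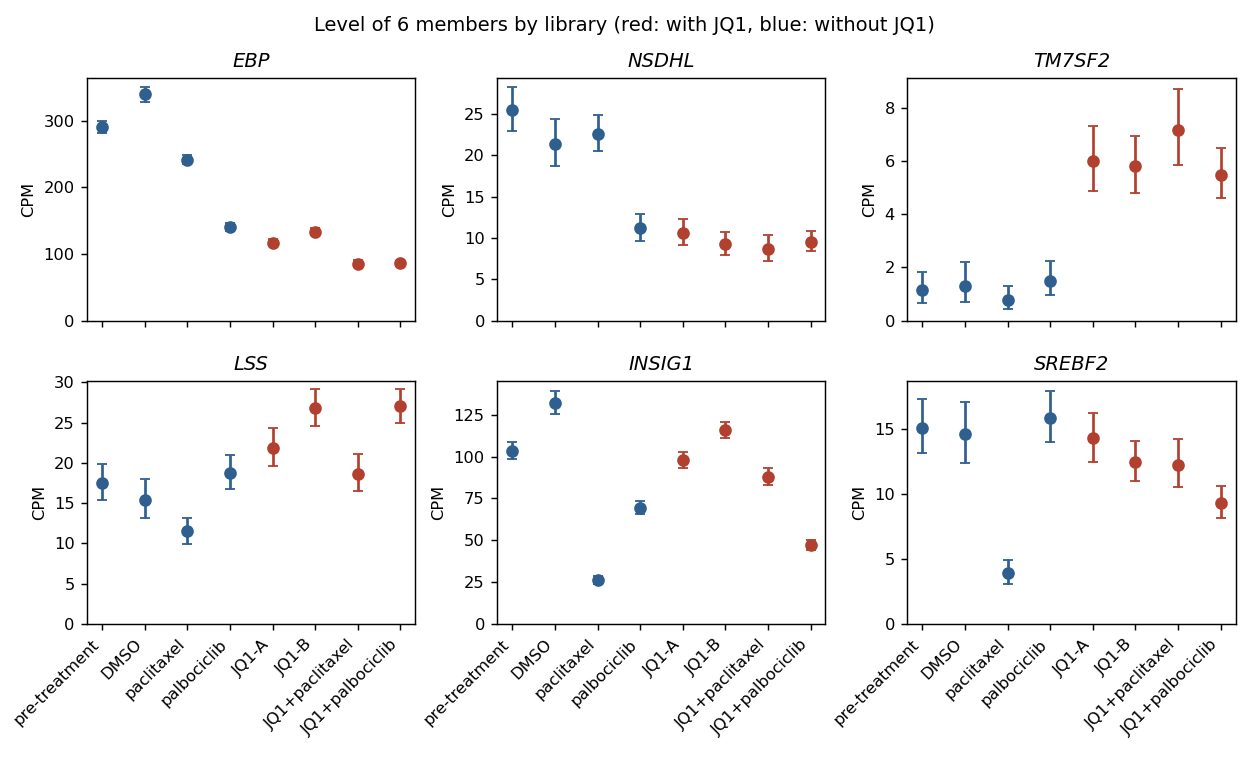
Levels of EBP, NSDHL, TM7SF2, LSS, INSIG1 and SREBF2 (vertical axes, CPM, from 0) in the 8 libraries (horizontal axes). Points are libraries, red with JQ1 and blue without, and bars are exact 95% counting intervals; TM7SF2 is at 5.49 CPM or more with JQ1 and 1.51 CPM or less without it, EBP and NSDHL in palbociclib lie next to the JQ1 libraries, and INSIG1 and SREBF2 are lowest in paclitaxel.

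Among the regulators SCAP alone was called. SCAP, the escort of SREBP, was at 11.8, 12.2, 14.7 and 13.8 CPM without JQ1 and 15.3, 15.6, 12.5 and 17.4 CPM with it, a small difference with overlapping groups. The log2 fold change was 0.40 ± 0.12 (adjusted p = 0.0356). The call was lost when JQ1+palbociclib (0.0509), DMSO (0.103), JQ1-B (0.110), JQ1-A (0.114) or pre-treatment (0.117) was left out. SREBF1, the gene of SREBP-1, which acts mainly on fatty acid genes, was at 24.5, 44.5, 17.2 and 57.3 CPM without JQ1 and 49.5, 53.4, 50.5 and 26.8 CPM with it. Paclitaxel was lowest without JQ1, and JQ1+palbociclib with it. INSIG2, a partner of INSIG1, spanned 10.9 to 22.7 CPM, and STARD4, a cytosolic carrier of cholesterol, 6.22 to 18.2 CPM.

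In the fatty acid arm ELOVL6, the elongase of palmitate, was the call. It stood at 29.0, 30.03, 30.9 and 22.5 CPM without JQ1 and at 15.1, 19.2, 18.7 and 15.1 CPM with it, without overlap. This gave a log2 fold change of -0.52 ± 0.11 (adjusted p = 0.0078). With experiment as a term it was -0.57 (adjusted p = 0.0762). FASN, fatty acid synthase, was at 99.8, 109, 51.3 and 80.0 CPM without JQ1 and 80.8, 108, 81.9 and 54.4 CPM with it. SCD, the desaturase that makes oleate, was at 116, 174, 44.01 and 145 CPM and at 173, 209, 153 and 106 CPM. Both genes were lowest in paclitaxel, where SCD was well under every other library. ACACA, acetyl-CoA carboxylase, was at 28.8, 23.7, 21.3 and 20.3 CPM and at 19.3, 22.3, 21.0 and 18.5 CPM, and ACLY, ATP citrate lyase, at 68.1, 63.4, 64.1 and 58.0 CPM and at 59.0, 75.5, 70.3 and 64.1 CPM. Neither passed the test for JQ1. FADS1, the delta-5 desaturase, was at 73.5, 66.7, 40.4 and 61.9 CPM and at 58.6, 74.7, 65.2 and 51.3 CPM. FADS2, the delta-6 desaturase, lay under the filter at 2.84, 2.07, 2.04 and 2.17 CPM without JQ1 and 1.42, 1.63, 0.697 and 1.53 CPM with it, also without overlap but untested. FADS1 and FADS2 overlap on opposite strands, and the sources used here do not give whether counting used strand. FEN1 overlaps FADS2 on the same strand, so reads of FADS2 could be shared with it.

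With palbociclib, which the palbociclib and JQ1+palbociclib libraries carried, 26 of 30 members had a log2 fold change below 0, and 16 of 18 sterol enzymes did. The median was -0.48 over the sterol enzymes, -0.13 over the regulators and -0.23 over the fatty acid enzymes, against 0.014 over all genes tested. The regulators' median was 0.19 without JQ1+palbociclib and -1.001 without palbociclib. No member was called by edgeR, where 0.28% of all genes were. At an unadjusted p below 0.05 there were 10 members, all of them sterol enzymes and all lower, against 2056 of 9288 genes, 919 of them lower. DESeq2 called 2 members, EBP and IDI1, and 515 of all genes. EBP had the smallest adjusted p, with a log2 fold change of -0.80 ± 0.15 (adjusted p = 0.0712); it was called in 6 of 15 alternatives, where adjusted p ran from 0.00012 to 0.898. Without paclitaxel or without JQ1+paclitaxel, 6 members were called, all lower (ACAT2, EBP, IDI1, INSIG1, MSMO1 and MVK), but the genes called also rose, from 26 of 9288 to 482 of 9220 and 497 of 9263. Without JQ1+palbociclib EBP and NSDHL were called, beside 938 of 9213 genes.

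Beside DMSO, from the other experiment and with 1 library each, palbociclib had the lowest ratios for EBP and FDPS and the highest for SREBF1 and FADS1; ratios are ranked here and below among members that reached 20 CPM in the higher of their 2 libraries. The 94 genes of the S and G2/M phase lists, of which none is a member, summed to 3951 CPM in palbociclib and 4064 CPM in JQ1+palbociclib. They came to 4580 to 4797 CPM in the other JQ1 libraries, but at 6136 CPM before treatment, 6799 CPM in DMSO and 8098 CPM in paclitaxel. The libraries with the lower cell cycle sums were also the 5 with the lower sterol sums; the part of cell cycle composition in the sterol levels was not tested across libraries.

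With paclitaxel, carried by the paclitaxel and JQ1+paclitaxel libraries, edgeR called no member and none of the 9288 genes (0%). Again 26 of 30 members had a log2 fold change below 0. The medians were -0.33 for sterol enzymes, -0.54 for regulators and -0.23 for fatty acid enzymes, against 0.014 for all genes. Without the paclitaxel library they were -0.11 for regulators and 0.072 for fatty acid enzymes, and without JQ1+paclitaxel -1.43 and -0.57. At an unadjusted p below 0.05 there were 7 members, all lower, against 395 of all genes, 198 of them lower, and DESeq2 called none. Without the JQ1+paclitaxel library 1 member, INSIG1, was called, as lower, among 4 of 9263 genes.

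The paclitaxel library and the JQ1+paclitaxel library did not look alike for the regulators. INSIG1, which holds SCAP in the endoplasmic reticulum and is itself an SREBP target (chromosome 7: 155089486 to 155101945, plus strand, GRCh37), was at 104, 132, 26.0 and 69.5 CPM without JQ1 and 97.8, 116, 88.0 and 47.2 CPM with it. Its level in paclitaxel was 0.197 of that in DMSO (95% counting interval 0.177 to 0.219), the lowest ratio of that pair, followed by SCD at 0.252 (0.232 to 0.274). JQ1+paclitaxel over paclitaxel was 3.38 (3.04 to 3.77) for INSIG1 and 3.47 (3.20 to 3.77) for SCD. SREBF2, the gene of SREBP-2, the main activator of sterol genes (chromosome 22: 42229109 to 42303310, plus strand, GRCh37), was at 15.1, 14.6, 3.91 and 15.9 CPM without JQ1 and 14.3, 12.5, 12.3 and 9.32 CPM with it. Its paclitaxel level stood apart from the 3 other libraries without JQ1. The ratio to DMSO was 0.268 (0.199 to 0.357).

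Whether the paclitaxel effect differed with JQ1 was tested by an interaction term. Of the 30 members 2 were called, INSIG1 (log2 interaction 1.94 ± 0.25, adjusted p = 0.0174) and SREBF2 (1.85, adjusted p = 0.0327), both higher with the combination than the single drugs would give; 0.388% of all genes were called. Members at an unadjusted p below 0.05 numbered 14, of which 13 were positive, against 1577 of 9288 genes, of which 815 were positive. The median interaction was 0.54 over members, 1.06 over regulators, 0.42 over sterol enzymes and 0.59 over fatty acid enzymes, against -0.021 over all genes. FDFT1 at 1.14 ± 0.23 (adjusted p = 0.0678) and SCD at 1.44 ± 0.31 (adjusted p = 0.0808) came next. The residual spread of this fit has 2 degrees of freedom, given by the 2 drug-free and the 2 JQ1-only libraries, and the term rests on the single paclitaxel and JQ1+paclitaxel libraries. Without JQ1-A the adjusted p was 0.120 for INSIG1 and 0.138 for SREBF2, and without JQ1-B 0.217 and 0.312, so edgeR called 0 members in either case, and 10 genes and 1 gene of all tested; without pre-treatment 12 members and 1141 of 9195 genes were called, and without DMSO 10 members and 617 of 9211 genes, against 36 genes with all libraries.

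The JQ1+palbociclib library was set beside its single drugs. Relative to JQ1-B of the same experiment, 21 of 32 members had a ratio whose counting interval lay below 1 and none had one above it, where the median ratio of all genes was 0.980. How many of all genes had such an interval was not counted, so 21 of 32 has no background beside it. Among the 18 members at 20 CPM or more, INSIG1 at 0.408 (0.380 to 0.438) and SREBF1 at 0.502 (0.455 to 0.554) were lowest, and SQLE at 1.02 (0.948 to 1.11) and LSS at 1.01 (0.899 to 1.13) highest. FASN was at 0.504 and SCD at 0.508 of JQ1-B. Of these pairs the reference is 1 library, with no replicate check: JQ1-B over JQ1-A, the same treatment in separate experiments, had 12 members with an interval above 1 and none below. As an interaction with palbociclib, edgeR called 0 members (0.0108% of all genes were called) and 11 had an unadjusted p below 0.05, 5 higher and 6 lower, against 1580 of all genes, 734 higher and 846 lower. The medians were 0.11 for sterol enzymes and -0.69 for regulators, against -0.011 for all genes. SREBF1 had the smallest adjusted p (log2 interaction -1.86, adjusted p = 0.113), and it was called by DESeq2 (adjusted p = 0.0052), which called 1 member. Without DMSO 7 members and 1112 of 9211 genes were called, and without pre-treatment 3 members and 596 of 9195 genes, against 1 gene with all libraries.

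The remaining pairs give the sizes between single libraries, with the tally over all 32 members of counting intervals above or below the pair's all-gene median (over genes averaging at least 20 CPM), and with the same limit of 20 CPM on which members are ranked lowest and highest. The share of all genes with such intervals was not counted, so these tallies are not set against a background. DMSO over pre-treatment, both without drug, had 9 above and 7 below its all-gene median of 1.01, lowest for SQLE and DHCR7 and highest for SREBF1 and SCD. JQ1-A over DMSO split about evenly, with 11 above and 12 below its all-gene median of 0.791, lowest for EBP and FDPS and highest for LSS and SREBF1. JQ1+paclitaxel over JQ1-A had 3 above and 9 below (all-gene median 0.993), lowest for SQLE and EBP and highest for ACLY and DHCR7. JQ1+palbociclib over palbociclib had 6 above and 13 below (0.956), lowest for SREBF1 and EBP and highest for SQLE and LSS. Palbociclib over DMSO had 4 above and 14 below (0.849). Paclitaxel over DMSO had 1 above and 22 below (1.02), highest for PMVK at 1.12 (1.02 to 1.24) and then NSDHL. JQ1+paclitaxel over paclitaxel had 18 above and 6 below (0.769), lowest for EBP and NSDHL.

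Cell by cell, UMIs of the sterol arm were found in nearly all cells of each library. The part that came from RNA outside the cell was not estimated. After cells outside the study's filter (mitochondrial share of 1 to 15% and at least 2000 genes) were set aside, 5575 cells remained, and 5487 of them held at least 10000 UMIs and were thinned to that number. The median cell held 8 sterol UMIs before treatment, 8 in DMSO, 6 in paclitaxel and 4 in palbociclib, and 5 in JQ1-A, 5 in JQ1-B, 4 in JQ1+paclitaxel and 4 in JQ1+palbociclib. The shift in the library sums was thus seen in the median cell. Cells with no sterol UMI made up 0.172% (pre-treatment) to 3.08% (JQ1-A). For the fatty acid arm the median was 4, 4, 2 and 3 UMIs without JQ1 and 4, 5, 3 and 3 with it. Spread beyond counting noise, as the squared coefficient of variation, was least in paclitaxel, at 0.048 for the sterol arm and 0.040 for the fatty acid arm. It was largest in JQ1-A for the sterol arm (0.233) and in JQ1+paclitaxel for the fatty acid arm (0.351). The 2 arms were only weakly related across cells of a library, with Spearman's rho from -0.078 (paclitaxel, 732 cells) to 0.278 (JQ1+paclitaxel, 606 cells), as a description of sparse counts that share a library.

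**Figure D4:**
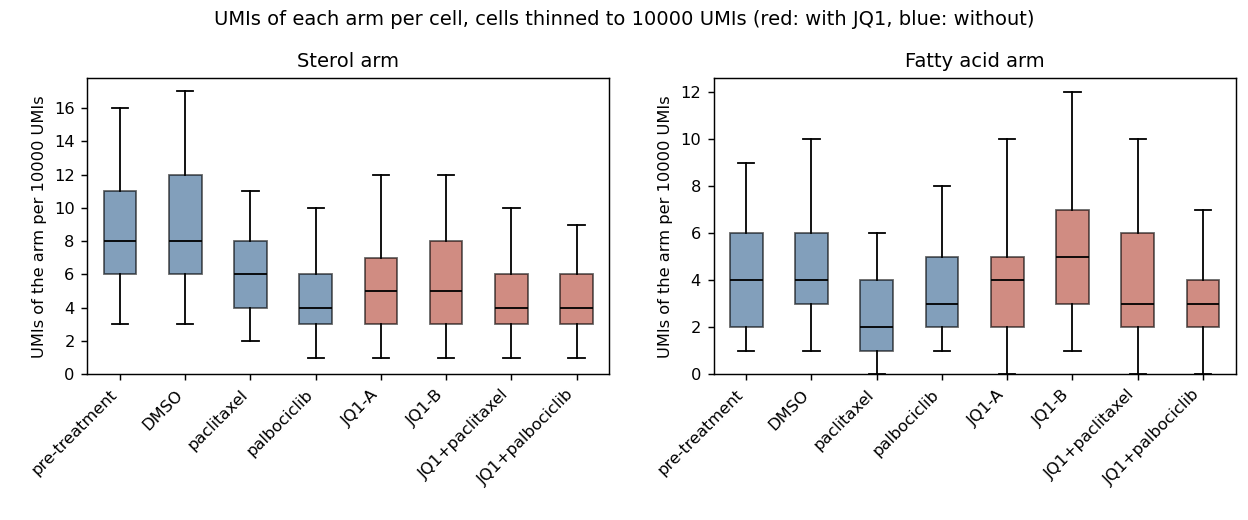
UMIs of the sterol arm (left) and of the fatty acid arm (right) per cell, in cells thinned to 10000 UMIs (vertical axes, UMIs per 10000), by library (horizontal axes; red with JQ1, blue without). Boxes span the quartiles with the median as a line and whiskers the 5th to 95th percentile of cells; the sterol median is 8 in the pre-treatment and DMSO libraries and 4 to 6 in the others, and the fatty acid median is lowest, at 2, in paclitaxel.

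Cells of each library were also divided at the library's median share of the 94 cell cycle genes. The sterol arm was higher in the cells above that median in 8 of 8 libraries, by ratios from 1.20 in JQ1+palbociclib (95% counting interval 1.13 to 1.27) to 1.45 in palbociclib (1.35 to 1.55). The fatty acid arm did not share this, with ratios from 0.899 in JQ1-A to 1.16 in palbociclib. The regulators ran from 0.878 to 1.13. EBP had ratios of 1.40 to 1.92, and the sterol arm without EBP 1.14 to 1.33. The members that were higher in the more cycling cells in all 8 libraries were ACAT2, MVK, IDI1, FDPS, FDFT1, NSDHL and EBP, all of the sterol arm, with median ratios from 1.16 (FDFT1) to 1.61 (ACAT2). The share of all genes that were higher there in all 8 libraries was not counted, so this list has no background beside it. LSS and HMGCS1 were higher there in 2 of 8 libraries, as were INSIG1, SREBF2, FASN and SCD. Cells of 1 library are not replicates, so the intervals cover counting error only.

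**Figure D5:**
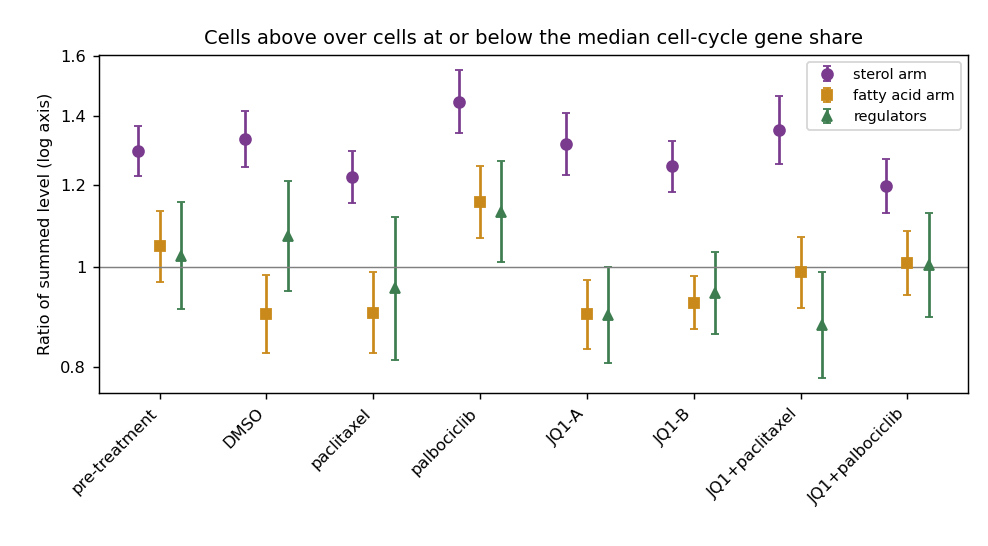
Ratio of the summed level of the sterol arm (circles), fatty acid arm (squares) and regulators (triangles) in cells above over cells at or below their library's median share of cell cycle genes (vertical axis, log scale), by library (horizontal axis). Bars are 95% counting intervals and the grey line marks equal levels; the sterol arm lies between 1.20 and 1.45 in all 8 libraries.

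Of 30 other genes that process SREBP or handle sterols and fatty acids, 25 could be tested, and the JQ1 term called 7 of them, a lower share than the 37.6% of all genes. Among those higher were NPC2, which takes cholesterol out of lysosomes (log2 fold change 0.87 ± 0.09, adjusted p = 0.0010), and LPIN1, a phosphatidate phosphatase (0.88 ± 0.17, adjusted p = 0.0068). Also higher were ACSS2, an acetyl-CoA synthetase (0.80, adjusted p = 0.0135), and MBTPS1, the protease that cleaves SREBP first (0.81, adjusted p = 0.0152). MYLIP, a ubiquitin ligase for lipoprotein receptors, was higher too (0.63, adjusted p = 0.0207). The single lower gene was ACSL4, which activates arachidonate (-0.64 ± 0.12, adjusted p = 0.0066). With experiment as a term only NPC2 of these was called. Leaving out JQ1-A ended the calls of ACSS2 (adjusted p = 0.0506), MBTPS1 (0.0547) and MYLIP (0.0694), leaving out pre-treatment those of MBTPS1 (0.0508) and MYLIP (0.0578), and leaving out DMSO (0.0675) or JQ1-B (0.0549) that of MYLIP. NPC2 was at 465 to 563 CPM without JQ1 and 694 to 850 CPM with it, without overlap. MBTPS1 in palbociclib, at 38.7 CPM, was within the JQ1 range of 34.9 to 40.7 CPM, against 17.7 to 25.3 CPM in the other 3. None of the 25 was called for palbociclib, paclitaxel or either interaction by edgeR; 4 (palbociclib), 3 (paclitaxel), 6 (JQ1 by palbociclib) and 8 (JQ1 by paclitaxel) had an unadjusted p below 0.05, against 2056, 395, 1580 and 1577 of 9288 genes. DESeq2 called ABCA1 and C14orf1 for palbociclib and none for the other 3 terms.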

How the data were processed

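Raw UMI counts per gene and cell were used as deposited, with cells assigned to libraries by the deposited cell metadata. Per the study's methods the authors prepared libraries with the Chromium Single Cell 3' kit and aligned and counted reads with Cell Ranger on hg19; the submitters' notes also name Seurat. The deposited counts were summed over all deposited cells of a library. No doublet caller was run. edgeR 4.0.16 fitted additive terms for JQ1, palbociclib and paclitaxel, and a second model both JQ1 interactions, over all 8 libraries, with TMM scaling and Benjamini-Hochberg adjustment over 9288 genes with at least 5 CPM in at least 2 libraries; tests were two-sided. DESeq2 1.42.0 was an alternative. On simulated data for the 9288 genes, 100% of 200 genes changed by 2 on the log2 scale were recovered for JQ1, with 8 false calls. For the JQ1 by paclitaxel interaction 97% were recovered, with 5 false calls. The simulation had a low fixed spread between libraries and no effect of experiment. It thus does not show how well changes as small as most of those called here are recovered. Counting intervals are exact 95% intervals. Cell cycle genes were the S and G2/M lists of Seurat 5.3.0. Gene positions are from the GRCh37 annotation and promoters from RefSeq (GRCh38.p14).

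Named members were those called, a fixed set of 12 key enzymes and regulators, and the 2 highest and 2 lowest members of each ratio between single libraries among those reaching 20 CPM; of the other pathway genes, up to 4 called per direction, beyond which MBTPS1 and MYLIP and the uncalled LBR were named after their values were seen. The members and lists were chosen with earlier results of these data known. Of the other pathway genes called for JQ1, 1 is not reported here.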

Additional observations from a re-analysis of the deposited data

Results flagged for a closer look

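Among the 4 libraries with JQ1, JQ1+palbociclib was picked out below the other 3 for FDPS (50.5 CPM against 58.6 to 58.8 CPM), FDFT1 (29.5 CPM against 36.3 to 37.3 CPM) and SREBF1 (26.8 CPM against 49.5 to 53.4 CPM). The FDPS difference is small and was picked out because the other 3 levels nearly coincide. Among the 4 without JQ1, paclitaxel stood far below for SREBF2 (3.91 CPM against 14.6 to 15.9 CPM). The rule was Dixon's test in 70 groups of 4 libraries, of which 4 were picked out, and chance picks out about 1 in 20. The libraries of such a group differ in partner drug and so are not replicates. An interaction of JQ1 with paclitaxel was called by edgeR for INSIG1 (log2 interaction 1.94, adjusted p = 0.0174) and SREBF2 (1.85, adjusted p = 0.0327). That term rests on the single paclitaxel and JQ1+paclitaxel libraries, and for SREBF2 it uses the same low paclitaxel level.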

How the results depend on the processing

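Of the 9 members called for JQ1, 3 were called with experiment as a term and 2 in the 3 matched pairs, and leaving out 1 library gave 5 to 13; the count was 5 when JQ1-B, JQ1-A or pre-treatment was left out. For palbociclib, with 0 calls by edgeR, DESeq2 gave 2, no filter on low counts 1, cells thinned to equal UMIs 1, and leaving out 1 library 0 to 6. For paclitaxel, with 0 calls, leaving out 1 library gave 0 to 1. For the interaction of JQ1 with palbociclib, with 0 calls, DESeq2 gave 1, no filter 3, and leaving out 1 library 0 to 7. For the interaction of JQ1 with paclitaxel, with 2 calls, no filter gave 6 and leaving out 1 library 0 to 12. The cause of these shifts was not tested. SREBF2 had an adjusted p of 0.0517 for that interaction with DESeq2. No fold change of a called gene changed direction in any alternative. The median JQ1 log2 fold change ran from -0.39 to 0.024 over sterol enzymes, and for palbociclib from -0.53 to -0.30; for JQ1 it ran from -0.15 to 0.68 over regulators and from -0.038 to 0.37 over fatty acid enzymes, for palbociclib from -1.001 to 0.19 and from -0.42 to -0.062, and for paclitaxel from -1.43 to -0.11 and from -0.57 to 0.072 (sterol enzymes -0.55 to -0.16). Scaling by library totals only was chosen after seeing the data. Leaving out 1 library of an exposure leaves a term on a single library, assumed to vary like the others. The only paired fit was that of the 3 matched pairs above, which follow experiment and partner drug. No other pairing of libraries was used. With 1 pooled library per treatment, treatment and library cannot be told apart.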
